A study of Mus musculus with 3 samples.

Results

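Argonaute 2 (Ago2) binding was examined on 8 genes linked to neurodegenerative disease: App, its relatives Aplp1 and Aplp2, the App-cleaving enzyme Bace1, and Mapt, Prnp, Htt and Tardbp. The members were chosen by name, as 8 of the 21028 genes that code for protein and have a 3′UTR in the annotation. No measured value entered the rule, but the genes and the gene lists used below were picked with earlier results of these data known, so their shares against all genes are descriptions. The peaks came from HITS‐clip sequencing, in which ultraviolet light crosslinks Ago2 to the RNA it touches, the protein is pulled down and the attached RNA fragments are sequenced. The material was N2A, a mouse neuroblastoma cell line, kept under basal conditions with no treatment. The 3 samples formed 1 group, so there was no other condition to compare with and no test between conditions. Each sample of about 60000000 cells was irradiated at 400 mJ per square cm and then in a pair of exposures at 200 mJ per square cm, and was precipitated with the anti-Ago2 clone 2D4. The labels do not say whether the samples came from separate cultures, and every SD below is the spread between these samples. The peak table gave intervals and no read counts, so read depth was unknown and a gene without a peak was not shown to lack Ago2.

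Ago2 holds a small guide RNA, usually a microRNA (miRNA), and binds transcripts that pair with the guide's seed, the bases near its 5′ end. Such pairing lies mostly in 3′UTRs and usually lowers the stability or translation of the transcript. The amyloid precursor protein encoded by App is cut first by Bace1 and then by the gamma-secretase complex on the way to the amyloid peptides of Alzheimer's disease, while Aplp1 and Aplp2 encode related membrane proteins without that peptide. Mapt encodes tau, which binds microtubules, Prnp the prion protein of the cell surface, Htt huntingtin and Tardbp an RNA-binding protein that aggregates in amyotrophic lateral sclerosis.

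The libraries held 711377, 498071 and 829936 peaks in replicates 1, 2 and 3. Those within the 8 genes on the strand of the gene numbered 282, 242 and 614, or 39.6, 48.6 and 74 per 100000 peaks, so replicate 3 was the richest in these genes by either count. Narrow peaks of at most 85 nt made up 71.5%, 61.4% and 52.8% of all peaks of replicates 1, 2 and 3. As a check of the cell line, 8 of 15 neuronal and neuroblastoma markers had a 3′UTR peak in every library, against 23.9% of all genes, with Map1b, Hand2, Ncam1 and Elavl4 among those covered at the same place in all of them. None of 5 astrocyte, 5 microglia and 4 endothelial markers had a 3′UTR peak in every library, whereas 2 of 5 oligodendrocyte markers (Mbp among them) and 2 of 4 fibroblast markers (Pdgfra and Col1a2) did. These counts alone did not set neuronal markers apart from the latter kinds. The neuronal markers Nefl and Th had no 3′UTR peak in any library.

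By the midpoint of each peak, introns of the 8 genes held 819 of the 1138 same-strand peaks, 3′UTRs 168, coding sequence 146 and 5′UTRs 5. Introns are far longer, and per kb the order was different. The 3′UTRs of the members together carried 1.34, 2.37 and 2.72 peaks per kb in replicates 1, 2 and 3, with a mean of 2.14 ± 0.717 (SD, n = 3). Coding sequence carried 0.723, 2.22 and 3.66 peaks per kb, with a mean of 2.20 ± 1.47, and introns 0.407, 0.229 and 0.807, with a mean of 0.481 ± 0.296. Density in 3′UTRs lay above that in introns in each library, while 3′UTRs and coding sequence did not differ beyond the spread between libraries. Replicate 1 had the fewest peaks per kb in 3′UTRs and coding sequence, but not in introns. On the opposite strand, used as background, the same genes held 22 peaks in 3′UTRs, 5 in coding sequence and 181 in introns, or 0.281 ± 0.159, 0.0754 ± 0.0691 and 0.106 ± 0.0286 peaks per kb. Of the 22, 16 lay in Bace1, where annotated transcripts run the other way, and the other 7 genes held 6, or 0.0908 ± 0.0454 per kb.

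**Figure D1:**
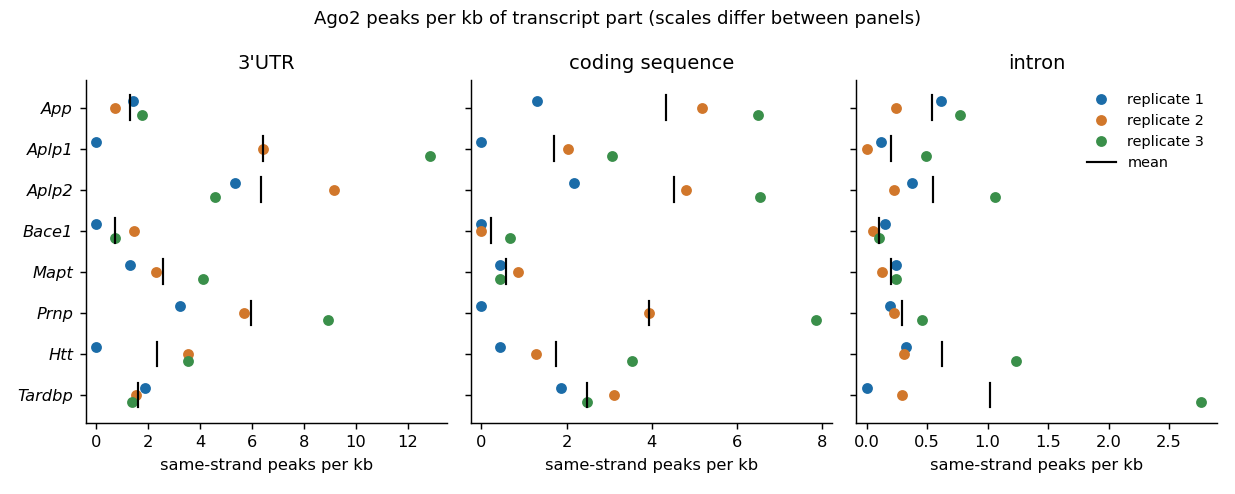
Same-strand Ago2 peaks per kb of 3′UTR, coding sequence and intron for each of the 8 genes, with 1 point per library and a black line at the mean of the 3 libraries; the horizontal scale differs between panels. Replicate 1 had no 3′UTR peak in Aplp1, Bace1 and Htt, and the highest intron value was that of Tardbp in replicate 3 (2.76 peaks per kb), followed by Htt in replicate 3 (1.24).

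All 8 genes had a same-strand 3′UTR peak in replicates 2 and 3, and 5 of 8 had one in replicate 1. Over all genes the shares were 34.8%, 44.7% and 48.4% in replicates 1, 2 and 3. App, Aplp2, Mapt, Prnp and Tardbp thus had a 3′UTR peak in every library (5 of 8, against 23.9% of all genes), and Aplp1, Bace1 and Htt lacked one in replicate 1. Long 3′UTRs more often carried a peak. Genes were therefore also split by 3′UTR length into 5 classes of equal number, and among the fifth of genes with the longest 3′UTRs, which holds App, Bace1, Mapt, Htt and Tardbp, 51.0% of genes had one in every library, as did 3 of these 5 members. A recurrent region, meaning a stretch of at least 8 nt under a same-strand peak in every library, was present in App, Aplp2, Mapt and Prnp (4 of 8, against 14.3% of all genes). In the longest class App and Mapt had one (2 of 5, against 30.3% of the class), and the shares in the classes of Aplp2 and Prnp were 20.1% and 12.7%. This split rested on replicate 1, since without it all 8 genes had a stretch shared by the remaining libraries, and the regions numbered 33 in place of 12. The share of all genes under that looser rule was not computed, so the count of 8 is not set against it. With peaks on the opposite strand, App and Bace1 had a 3′UTR peak in every library (2 of 8, against 2.63% of all genes) and Bace1 alone had a recurrent region (1 of 8, against 0.737%).

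Taken over the longest annotated 3′UTR, the share under a peak was highest in Aplp2. Its 3′UTR of 1314 nt was covered to 47.2%, 88.7% and 80.6% in replicates 1, 2 and 3, a mean of 72.2 ± 22.0% (SD, n = 3). That mean stood at percentile 99.6 among genes of its length class, whose median was 5.71%. The 3′UTR of Prnp, 1235 nt long, was covered to 30.4%, 51.0% and 94.2%, a mean of 58.5 ± 32.5% and percentile 97.5 in its class. Aplp1, with a short 3′UTR of 311 nt, ranged most, with 0%, 56.6% and 100% and a mean of 52.2 ± 50.1%. The mean of Aplp1 stood at percentile 96.1 in its class. These 3 genes had the highest means, but their order was not separated by the spread between libraries. It also rested on the 3′UTR model, since with the 3′UTR of the principal transcript the mean was 91.7% for App and 75.0% for Mapt, both above that of Aplp2. That 3′UTR is 888 nt long in App but only 32 nt in Mapt, shorter than the narrowest peak of 79 nt. The 3′UTRs of the other 5 genes lie in the longest class, with a class median of 7.77%, and their means stood at percentiles 73.5 (Mapt), 70.7 (Htt), 67.4 (App), 60.8 (Tardbp) and 45.6 (Bace1). Mapt was covered to 11.3%, 19.5% and 36.9% (mean 22.6 ± 13.1%). Htt had 0%, 31.7% and 30.4% (20.7 ± 17.9%). App had 13.2%, 16.4% and 25.5% (18.4 ± 6.41%). These 3 neighbours in the order did not differ beyond their spread. Tardbp was the steadiest, with 15.1%, 13.5% and 12.9% and a mean of 13.8 ± 1.14%. Bace1 was the lowest, with 0%, 11.4% and 6.19% (5.87 ± 5.72%), and the only member with a mean below the median of its class. Without replicate 1 its mean was 8.81%, against a class median of 9.05%, and in replicate 2 alone it lay above the class median of 6.91%. The mean over the 8 genes was 33.0 ± 17.1% (SD over the libraries).

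**Figure D2:**
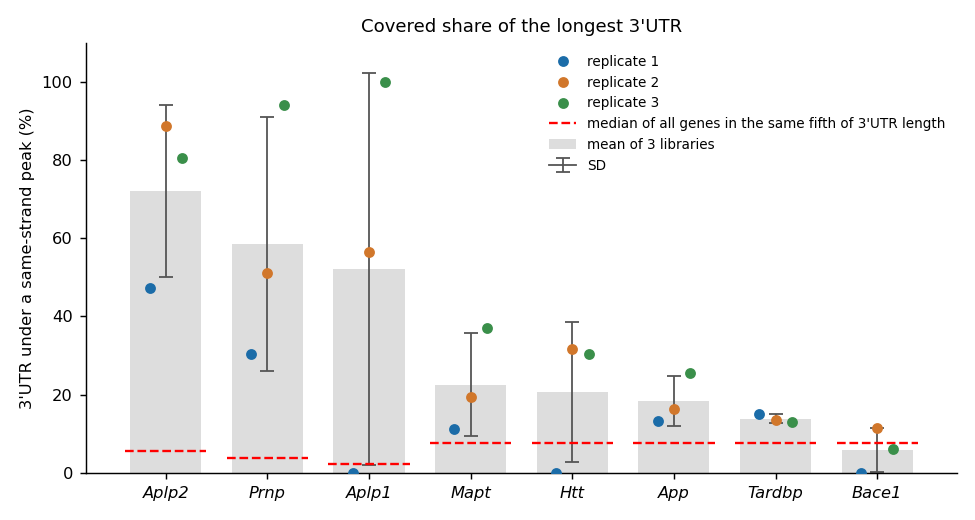
Percent of the longest annotated 3′UTR under a same-strand peak. Grey bars and error bars give the mean and SD of the 3 libraries, points the libraries, and red dashes the median over all genes in the same class of 3′UTR length. The means run from 72.2% for Aplp2 to 5.87% for Bace1, and 7 of the 8 bars rise above the dashes.

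App (chromosome 16, 84949685 to 85173766, minus strand, GRCm38) had most of its covered 3′UTR sequence close to the stop codon. GENCODE gives App several 3′UTRs from the same stop codon: the principal transcript App-201 ends after 888 nt, and the longest model, App-206, after 5646 nt. The first 888 nt were covered to 75.0%, 100% and 100% in replicates 1, 2 and 3, or 91.7 ± 14.4% (SD, n = 3). The remaining 4758 nt were covered to 1.66%, 0.799% and 11.6%, or 4.70 ± 6.03%. Coverage from the stop codon ended at nt 926 in replicate 2 and nt 929 in replicate 3, and at nt 887 in replicate 1 apart from a single later peak. Replicate 3 alone had several separate stretches further along. Which 3′UTR N2A cells use was not measured, so lower binding beyond the principal end and absence of that sequence from the transcripts cannot be told apart.

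The 4 recurrent regions of App all lay in this proximal part, in the last exon. They were masked to between 18.4% and 42.9% in the reference genome file. They spanned nt 53 to 148 (chr16:84955183-84955278), nt 182 to 339 (chr16:84954992-84955149), nt 461 to 660 (chr16:84954671-84954870) and nt 676 to 887 (chr16:84954444-84954655) after the stop codon, 666 nt in all. Their limits were those of the peaks of replicate 1, which were 140 nt wide or less, because replicates 2 and 3 covered the whole stretch with peaks as wide as 591 and 379 nt. Of the 22 peaks on the App 3′UTR, 6 had a score under the highest value of 60, and all 6 were in replicates 2 and 3. With peaks of 86 to 200 nt only, or with peaks at the highest score only, App had no recurrent region, and its covered share fell to 7.19% and 9.19%.

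Seed matches of 60 miRNA families were searched in the 3′UTRs. A match pairs with bases 2 to 8 of the miRNA, with a following A (8mer) or without (7mer-m8), or with bases 2 to 7 followed by A (7mer-A1). The App regions held 11 of these matches at 7 separate places. They are printed because they are the letters shared by all libraries, in the sense of the App transcript, with the match in capitals and the distance from the stop codon in the name.
App, miR-340-5p, nt 75 to 81 (chr16:84955239-84955267): atcggtgttcaTTTATAAaataacgtgga
App, miR-101, nt 255 to 262 (chr16:84955058-84955087): atgggttttgtGTACTGTAaaaaaaaaaat
App, miR-101b, nt 256 to 263 (chr16:84955057-84955086): tgggttttgtgTACTGTAAaaaaaaaaatt
App, miR-153-3p, nt 476 to 482 (chr16:84954838-84954866): tttcctgatcaCTATGCAttttgaacatt
App, miR-186-5p, nt 522 to 528 (chr16:84954792-84954820): tgacttagaaaATTCTTTttccatgactg
App, miR-101b, nt 545 to 551 (chr16:84954769-84954797): tgactgcatctTACTGTAcagattgctgc
App, miR-15/16 family, nt 557 to 563 (chr16:84954757-84954785): actgtacagatTGCTGCTtctgctctctt
App, miR-17 family, nt 729 to 735 (chr16:84954585-84954613): gttcatcataaGCACTTTtacgggtgggg

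The overlapping pair at nt 255 to 263, for miR-101 and miR-101b, gave the 2 8mers among the members' recurrent regions. The same letters served as a 7mer-A1 match of miR-144-3p, and the place at nt 545 was likewise shared by miR-101, miR-101b and miR-144-3p. These 3 miRNAs have closely related seeds, offset by a base or differing at the end, as their mature sequences from RefSeq (GRCm38.p6) show, with bases 2 to 8 in capitals.
miR-101a-3p: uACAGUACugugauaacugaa
miR-101b-3p: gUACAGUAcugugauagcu
miR-144-3p: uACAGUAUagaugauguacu
miR-153-3p: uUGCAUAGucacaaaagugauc
miR-186-5p: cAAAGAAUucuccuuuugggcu
miR-340-5p: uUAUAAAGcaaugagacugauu
miR-15a-5p: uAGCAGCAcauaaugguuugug
miR-17-5p: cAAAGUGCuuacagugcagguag

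The mature arm of miR-101b-3p, miR-144-3p, miR-153-3p, miR-186-5p, miR-340-5p, miR-15a-5p and miR-17-5p lay under a peak in each library, while that of miR-101a-3p did so in replicate 1 only. A peak over an arm says that RNA from the locus was recovered and gives no amount. The App matches were under a peak of 86 to 200 nt in 1 library each, except that of the miR-17 family, in 2 libraries. An 8mer of the miR-26 family at nt 386 to 393 lay between the regions, under peaks of replicates 2 and 3 but not replicate 1. The 8mers of miR-23 at nt 1694 and miR-339-5p at nt 3952, in the distal part, were under no peak.

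**Figure D3:**
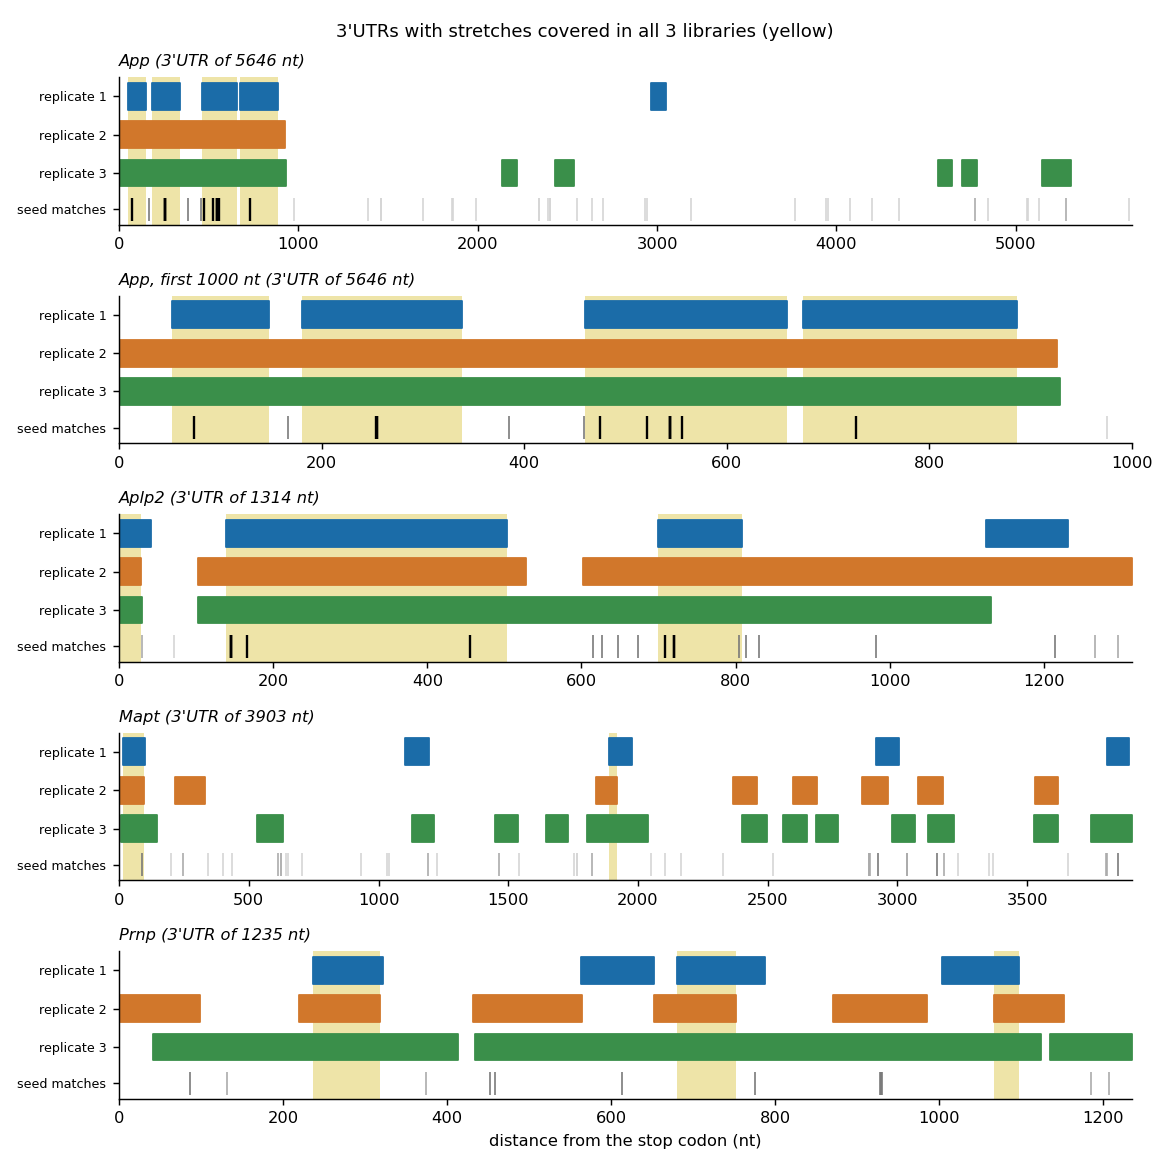
Maps of the 3′UTRs of App (whole, and the first 1000 nt enlarged), Aplp2, Mapt and Prnp in nt from the stop codon. Coloured bars are stretches under a same-strand peak in each library, yellow marks stretches of at least 8 nt covered in all 3, and ticks are seed matches, darker with more libraries and black for all 3. The yellow stretches of App end at nt 887 of 5646, and those of Mapt and Prnp hold no black tick.

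Aplp2 (chromosome 9, 31149557 to 31211815, minus strand) had 3 recurrent regions in its 3′UTR, 500 nt or 38.1% of it. The first, nt 1 to 28 (chr9:31150843-31150870), continued into the coding sequence and spanned 89 nt over the stop codon. The second, nt 140 to 503 (chr9:31150368-31150731), was the longest of any member at 364 nt, and the last ran from nt 701 to 808 (chr9:31150063-31150170). The second region was rich in A and T, at 69.0% against 56.5% for the whole 3′UTR. The last was the 1 region of Aplp2 left with peaks of 86 to 200 nt only. The latter 2 regions held 8 matches at 5 places, of which those for families with an arm under a peak in every library are printed.
Aplp2, miR-101b, from nt 146 (chr9:31150708-31150736): ctataaagtacTACTGTAggattgcaatt
Aplp2, miR-186-5p, nt 167 to 173 (chr9:31150687-31150715): ttgcaatttccATTCTTTtaaatgggtta
Aplp2, miR-200b family, nt 457 to 463 (chr9:31150397-31150425): atgtataaaggCAGTATTtcccttttcag
Aplp2, miR-30, nt 721 to 727 (chr9:31150133-31150161): tcttccacagtTGTTTACggtagcctttt

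The match at nt 146 was again shared by miR-101, miR-101b and miR-144-3p. App and Aplp2 thus both had matches of these 3 families and of miR-186-5p under recurrent regions. This sharing did not hold with peaks trimmed at both ends by the padding they appear to carry. The miR-186-5p match of App at nt 522 then stayed covered in all 3 libraries. That of Aplp2 at nt 167, and the matches of the other 3 families in both genes, were covered in 2 libraries. The miR-30 match was shared with miR-384-5p, whose arm lay under a peak in 2 libraries, and a match of the miR-7 family at nt 710 had no arm under a peak in any library. Both lay in the region from nt 701 and were under peaks of 86 to 200 nt in all 3 libraries. The mature sequences of the other families are given for comparison with the matches.
miR-200b-3p: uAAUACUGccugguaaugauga
miR-30a-5p: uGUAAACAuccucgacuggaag

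Aplp1 (chromosome 7, 30434982 to 30445535, minus strand) had 1, 6 and 14 same-strand peaks over the whole gene in replicates 1, 2 and 3, and the single peak of replicate 1 was intronic. On the 3′UTR there were 0, 2 and 5. Replicates 2 and 3 shared nt 136 to 311 of its 3′UTR, 176 nt. The gene had therefore no recurrent region, and its 3′UTR held 2 seed matches.

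Bace1 (chromosome 9, 45838580 to 45864399, plus strand) had 3, 7 and 6 peaks on its strand, 16 in all and the lowest total of the 8 genes, and 4, 9 and 13 on the other. It was the only member with more peaks opposite than along its strand. Its 3′UTR of 4104 nt had 0, 6 and 3 peaks, and replicates 2 and 3 shared 3 stretches of 150 nt in all. The opposite-strand recurrent region, 85 nt (chr9:45864310-45864394), lay at the far end of the 3′UTR, where the gene Rnf214 runs the other way and overlaps Bace1 by 975 nt. There 8 opposite-strand peaks (1, 2 and 5 in replicates 1, 2 and 3) had their midpoint in Rnf214 exons, and 5 and 4 opposite-strand peaks lay in exons of the annotated transcripts Gm16536 and Gm49338. The Bace1 3′UTR held 8 8mers, the most of any member, and 7 of them lay under no peak in any library. The exception, for miR-339-5p at nt 3633, was covered in replicate 3.

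Mapt (chromosome 11, 104231390 to 104332090, plus strand) had 5, 9 and 16 peaks spread along its longest 3′UTR of 3903 nt in replicates 1, 2 and 3. Its coding sequence had 1, 2 and 1 peaks. The recurrent regions were short and far apart, at nt 15 to 96 (82 nt, chr11:104328202-104328283) and nt 1891 to 1918 (28 nt, chr11:104330078-104330105). The second consisted of A and T to 89.3%, against 49.6% for the whole 3′UTR, and was masked throughout in the reference genome file. The first was masked there to 69.5%. The principal transcript Mapt-201 is annotated with a 3′UTR of 32 nt only, in which 18 nt of the first region fall. Replicates 2 and 3 shared 6 stretches, 430 nt in all. No complete match of a searched family lay inside the recurrent regions of Mapt, although the 3′UTR held 43, and its 3 8mers (miR-22-3p, miR-146 and miR-199a-5p) were under no peak.

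Prnp (chromosome 2, 131909928 to 131938429, plus strand) had 4, 7 and 11 peaks on its 3′UTR, and 0, 3 and 6 in its coding sequence, in replicates 1, 2 and 3. The 3′UTR was the more regularly occupied of these parts, with a peak in each library. Its recurrent regions were spaced along the 3′UTR, at nt 237 to 318 (chr2:131937431-131937512), nt 681 to 752 (chr2:131937875-131937946) and nt 1068 to 1097 (chr2:131938262-131938291). With peaks of 86 to 200 nt only Prnp again had 3 regions, while the counts of App, Aplp2 and Mapt fell to 0, 1 and 1. None of its 12 seed matches lay inside them, but all 12 were under a peak in 1 or 2 libraries, among them the 8mer of miR-9-5p at nt 375 in replicate 3. The gene Prn overlaps Prnp on the same strand over nearly its whole length, and only 1 of the 55 Prnp peaks had its midpoint in a Prn exon.

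Htt (chromosome 5, 34761740 to 34912534, plus strand) had 49, 68 and 217 same-strand peaks in replicates 1, 2 and 3. Its 3′UTR of 3689 nt had 0 peaks in replicate 1 and 13 in each of replicates 2 and 3. Its coding sequence had 4, 12 and 33 peaks, and its introns 45, 43 and 170. Replicate 1 thus had intronic peaks in Htt in about the same number as replicate 2, but none in its 3′UTR. The gene Msantd1 overlaps Htt by 4523 nt on the same strand, with 27 of the Htt peaks in the overlap and 0 midpoints in its exons. Replicates 2 and 3 coincided in 8 stretches of the 3′UTR, 579 nt in all, the longest at nt 488 to 630. Tardbp (chromosome 4, 148612382 to 148627019, minus strand) had a steady 3′UTR count. The 3′UTR of 5879 nt, the longest of the 8, had 12, 9 and 8 peaks and nearly equal covered shares, yet only 2 nt were covered in all libraries. Replicates 2 and 3 shared 4 stretches, 194 nt in all, and replicates 1 and 2 shared 97 nt.

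Both genes held an 8mer under peaks of 2 libraries. Across the members there were 4 such 8mers, the others in App and Aplp2, and all 4 are printed. These were chosen after their values were seen.
Htt, miR-204-5p, nt 1332 to 1339 (chr5:34910166-34910195): gatgaggcaccAAAGGGAAggttcaaaatc
Tardbp, miR-137-3p, nt 2113 to 2120 (chr4:148616130-148616159): gttaatgtaaaAGCAATAAtacattgatta
App, miR-26, nt 386 to 393 (chr16:84954927-84954956): gaaaaaactccTACTTGAAatatgctttaa
Aplp2, miR-148a-3p, nt 806 to 813 (chr9:31150047-31150076): ggctccctccaTGCACTGAccctctgcctg
miR-204-5p: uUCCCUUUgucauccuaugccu
miR-137-3p: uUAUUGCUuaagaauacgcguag
miR-26a-5p: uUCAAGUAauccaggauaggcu
miR-148a-3p: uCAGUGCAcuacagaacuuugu

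The Htt match was covered in replicates 2 and 3, but in none with peaks of 86 to 200 nt or trimmed peaks, and the miR-204-5p arm lay under a peak in replicate 2 only. The Tardbp match was covered in replicates 1 and 3, but in none with trimmed peaks, and the miR-137-3p arm in every library. The App match was covered in replicates 2 and 3, in none with peaks of 86 to 200 nt, and in 2 libraries with trimmed peaks. Of the miR-26 family, the arm of miR-26b-5p lay under a peak in every library and that of miR-26a-5p in none. The latter has more than 1 locus, and of 22 listed miRNAs with 2 or more loci 21 had no arm under a peak in any library, against 16 of 89 with 1 locus, so a missing arm peak says little about such a miRNA. The Aplp2 match, at the edge of the region ending at nt 808, was covered in replicates 2 and 3, and the miR-148a-3p arm in every library. With peaks of 86 to 200 nt, and likewise with trimmed peaks, the Aplp2 match was covered in 1 library.

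**Figure D4:**
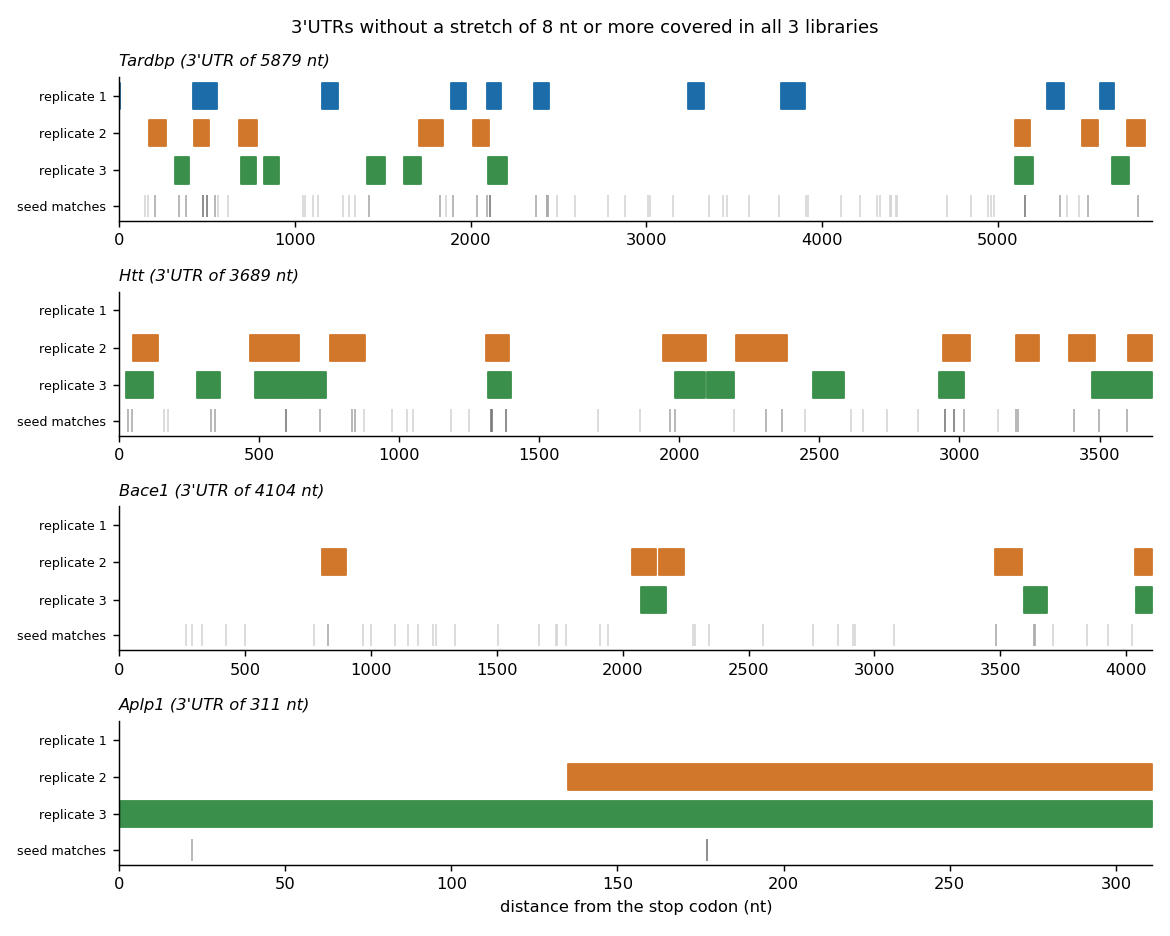
Maps of the 3′UTRs of Tardbp, Htt, Bace1 and Aplp1 in nt from the stop codon, with stretches under a same-strand peak in each library as coloured bars and seed matches as ticks, darker with more libraries. The replicate 1 track is empty for Htt, Bace1 and Aplp1, and Tardbp has places shared by pairs of libraries but only 2 nt covered in all 3.

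Outside the 3′UTRs, stretches covered in every library were found in App, Aplp2 and Htt. In App an 87 nt stretch lay in coding exon 15 of 16 (chr16:84962723-84962809), and 4 stretches of 34 to 82 nt lay in introns. These intronic stretches were masked to between 32.4% and 83.8% in the reference genome file. Aplp2 had them in coding exons 3 (45 and 33 nt), 4 (82 nt) and 13 (65 nt), besides the one across its stop codon and 1 of 19 nt in an intron. Htt had 13 nt in coding exon 42 of 67 (chr5:34875951-34875963) and 3 intronic stretches of 34, 72 and 80 nt. Aplp2 was thus the member with the most recurrent coding sequence, 314 nt with the whole stretch over the stop codon included, against 87 nt in App and 13 nt in Htt. On the opposite strand the Bace1 region was joined by 1 intronic stretch of 79 nt in Mapt.

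Over the whole gene App had 143, 69 and 191 same-strand peaks in replicates 1, 2 and 3 and 42, 19 and 26 on the opposite strand. Intronic peaks made up 132, 53 and 166 of the former. The intronic density of App was 0.542 ± 0.269 peaks per kb (SD, n = 3) on its own strand and 0.125 ± 0.0516 on the other. Htt had 0.625 ± 0.529 intronic peaks per kb against 0.0824 ± 0.0303. In both genes each library had more intronic peaks along the strand of the gene than against it. In Tardbp the intronic peaks were 0, 2 and 19, nearly all from replicate 3. Peaks over 1000 nt were few, 25 of 1138, of which 7 had both ends in exons of the gene, and leaving them out changed no 3′UTR value.

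**Figure D5:**
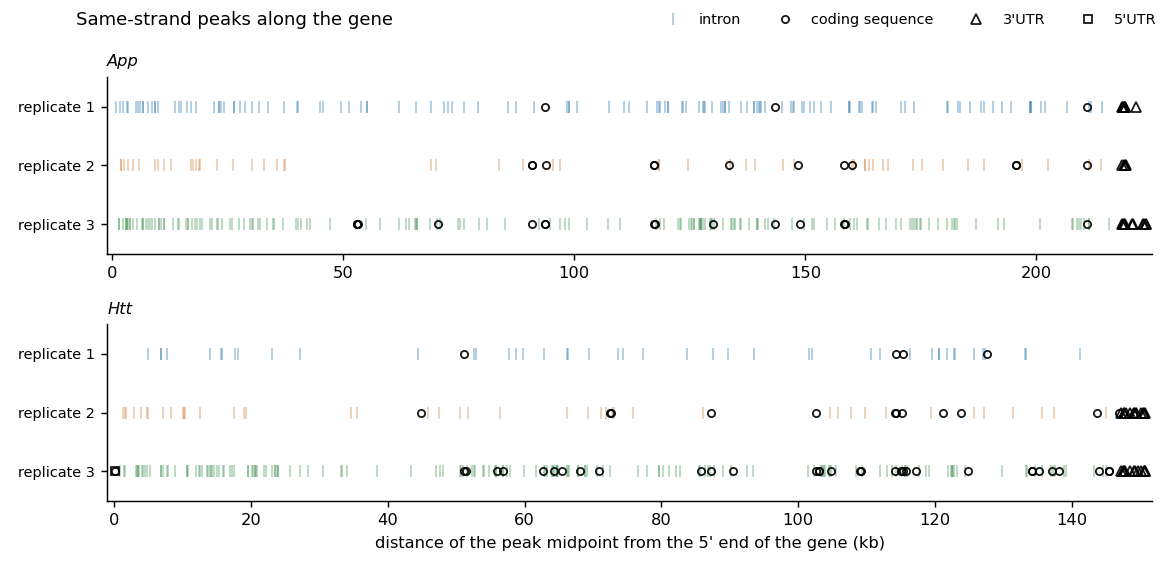
Midpoints of same-strand peaks along App and Htt by library, in kb from the 5′ end of the gene; coloured ticks are intronic peaks and black circles, triangles and squares are peaks in coding sequence, 3′UTR and 5′UTR. App has 3′UTR peaks at its far end in all libraries, whereas Htt has 13 there in replicates 2 and 3 and 0 in replicate 1.

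Across the 8 genes 266 seed matches were found in 26081 nt of 3′UTR, 27 of them 8mers. Under recurrent regions lay 19, at 12 separate places, 35 were covered in 2 libraries, 61 in 1 and 151 in none. The density was 13.0 matches per kb in the recurrent regions and 10.0 per kb elsewhere in the same genes. Several families share the same letters, and with overlapping matches counted as 1 place the densities were 8.22 places per kb inside and 8.98 outside, so the order turned. App had 16.5 matches per kb inside and 7.03 outside (10.5 and 6.02 places per kb), Aplp2 had 16 in both (10 and 16 places per kb), and Mapt and Prnp had none inside. Most App sequence outside the regions was the 4758 nt beyond the end of App-201, which the transcripts may lack. The rest of the first 888 nt also held matches, at nt 168, 386 and 460. A difference for App within that proximal part was not tested. After the 30 nt of padding that peaks appear to carry was taken off both ends, 2 matches remained under recurrent regions. Regions of App beyond the first were also richer in A and T, at 67.5% to 68.4% against 58.7% for its whole 3′UTR, and the part of base composition in the App values was not tested. Of the 19 matches, 14 belonged to families with an arm under a peak in every library, against 160 of all 266.

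Genes of the same pathways were read from lists by the same rule. Of 95 such genes, 44 (46.3%) had a 3′UTR peak in every library and 31 (32.6%) a recurrent region, against 23.9% and 14.3% of all genes. The median 3′UTR was longer than the 960.5 nt of all genes in most lists, and the share of genes with a peak in every library went from 2.88% in the shortest to 51.0% in the longest class, so the part of 3′UTR length in these counts was not tested. Among the secretases and their subunits, which cut the amyloid precursor, 7 of 11 had a 3′UTR peak in every library and 5 a recurrent region. The alpha-secretase gene Adam10 led with 6 regions (545 nt) and 31.2%, 75.3% and 79.0% of its 3′UTR covered in replicates 1, 2 and 3, followed by Adam9 (3 regions, 226 nt) and the gamma-secretase subunit gene Aph1b (4 regions, 172 nt). Of 19 genes for adaptors, carriers and clearance of the amyloid precursor and its products, 7 had a peak in every library, each with a recurrent region. The endocytic gene Picalm had 8 regions (464 nt), the sorting receptor gene Sort1 had 7 (313 nt) and Lrp8, a lipoprotein receptor gene, 6 (250 nt).

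Among 16 genes for tau kinases and phosphatases, 9 had a peak in every library and 7 a recurrent region, against 23.9% and 14.3% of all genes and 33.7% and 20.1% in the length class that holds the list's median of 1961.5 nt. Gsk3b, a tau kinase gene, had 12 regions spanning 926 nt, more than any of the 8 members, with 24.1%, 63.3% and 63.1% of its 3′UTR covered. Ppp2ca, the catalytic subunit of protein phosphatase 2A, had 5 (450 nt) and the casein kinase gene Csnk1d 2 (195 nt). Of 19 amyotrophic lateral sclerosis and frontotemporal dementia genes, 9 had a peak in every library and 6 a recurrent region (all genes 23.9% and 14.3%), led by the RNA-binding protein genes Matr3 (3 regions, 176 nt) and Tia1 (3 regions, 165 nt) and by Ubqln2 (2 regions, 108 nt).

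Of 14 Parkinson disease genes, 5 had a 3′UTR peak in every library and 3 a recurrent region (all genes 23.9% and 14.3%), namely Synj1 (3 regions, 232 nt), Vps35 (1 region, 136 nt) and Uchl1 (1 region, 51 nt). Of 11 polyglutamine disease genes and huntingtin partners, 6 had a peak in every library (23.9% of all genes, 51.0% of the longest class, which holds the list's median length) and 2 a recurrent region (14.3% and 30.3%), Atxn3 (4 regions, 158 nt) and Tbp (1 region, 59 nt). Of 5 prion family genes and partners, 1 had a peak in every library and a recurrent region, Stip1, a co-chaperone gene, with 2 regions (182 nt). Prnd had 1, 0 and 2 peaks, and Gpm6a and Rpsa, the latter named after its values were seen, had none in any library. The median covered share was 23.8% for the secretases, 21.9% for adaptors and carriers, 13.7% for tau kinases and phosphatases, 27.1% for amyotrophic lateral sclerosis and frontotemporal dementia genes, 11.3% for Parkinson disease genes, 11.5% for the polyglutamine list and 1.04% for the prion list, against 3.32% over all genes. All lists but the last thus lay above the median of all genes. Median 3′UTR length differed between the lists, from 569.5 nt for the Parkinson disease genes to 3978 nt for the polyglutamine list, so these counts are not compared with each other.

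The genes whose covered shares lay nearest to those of App, among 3082 with a 3′UTR of 0.5 to 2 times its length, included Kif21b and Kdsr. Kif21b had 12.3%, 17.5% and 26.1% in replicates 1, 2 and 3, at a Euclidean distance of 1.51 percentage points from App over the 3 libraries. Kdsr was at 1.60. Both had 2 recurrent regions, against 4 in App.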

How the data were processed

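HITS‐clip peaks of 3 N2A samples (1 group) were analysed. Per the labels, the authors' processing notes name FastQC, cutadapt and STAR and the build mm10 (GRCm38). Versions, the peak caller and its threshold were not given in the sources used here. The authors deposited 1 table of intervals with strand, sample and a score per peak. The deposited score has no stated unit, ran from 54.6 to 60, and was 60 for 98.9%, 99.3% and 99.6% of peaks in replicates 1, 2 and 3. The number of value columns of other samples was 0. Read depth is unknown, so no interval or detection limit was derived.

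The members, gene lists and miRNA families were chosen with earlier results of these data known. Starts were read as counted from 0. Annotation was GENCODE M21, the 3′UTR of a gene being the longest among its protein-coding transcripts without the stop codon. A peak was given to a part by its midpoint, in the order 3′UTR, coding sequence, 5′UTR and intron. For 3′UTR counts and covered shares, any overlap of 1 nt or more counted, and recurrent regions needed 8 nt. Of 127 miRNAs in 68 families, 111 matched the RefSeq table, covering 60 families, and 36 families had an arm overlapped by 15 nt or more in every library after peaks were trimmed by 30 nt on each side, the padding they appear to carry. Named genes were the 8 members, the 3 genes with most recurrent sequence per list (ties by symbol), and the 3 nearest to App. Marker genes named were those with a recurrent region, those of other cell types with a peak in every library, and neuronal ones with none. Some genes that these rules select are not reported here.

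Alternatives were the overlap rule, peaks of 86 to 200 nt, trimmed peaks, the highest score only, 40 nt of overlap, regions of 20 nt, at least 2 libraries, each replicate left out, the opposite strand, merged 3′UTR exons and site type. Leaving out peaks over 1000 nt and the 3′UTR of the principal transcript were added after seeing the data. The region search was tested on simulated data for 9486 3′UTRs. Same-strand peaks were planted in no library, in 2, or in all at the same or at different places. Presence or absence of a region was called rightly in every 3′UTR. Python 3.11.15, numpy 2.4.6, pandas 2.3.3, pysam 0.24.0 and matplotlib 3.10.9 were used.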

Additional observations from a re-analysis of the deposited data

How the results depend on the processing

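Of 124 values recomputed under alternatives, for 16 results, 96 stayed within the spread between libraries or within 1.5 times of the count, and 28 moved. On the opposite strand the members' peaks numbered 22 in 3′UTRs, 5 in coding sequence, 0 in 5′UTRs and 181 in introns, 2 members had a 3′UTR peak in every library, and 1 recurrent region was found. With peaks of 86 to 200 nt only, which leaves fewer peaks, intronic peaks numbered 496, recurrent regions 5 and seed matches under them 3. With the highest score only there were 5 recurrent regions, and with trimmed peaks 2 seed matches. App had no region with peaks of 86 to 200 nt or with the highest score only. With at least 2 libraries, a looser rule, 8 members, 39 regions and 54 matches were counted. Shares over all genes were not computed for this rule or with a replicate left out. Leaving out each replicate gave 5 to 8 members, 16 to 33 regions and 23 to 45 matches. The highest values were without replicate 1, when Aplp1, Bace1 and Htt also had a 3′UTR peak in each library and 8 regions were in Htt. Counting 8mers only left 2 matches, and counting 6mers also gave 36. The mean covered share over the members ran from 19.4% with trimmed peaks to 48.7% with the 3′UTR of the principal transcript. For single genes it moved beyond the spread to 47.9% and 48.0% for Aplp2 (86 to 200 nt, highest score), 9.21% for Mapt (trimmed), and 11.2% and 4.97% for Tardbp (86 to 200 nt, trimmed), besides the values given for App. With the 3′UTR of the principal transcript there were 11 regions, and the share was 91.7% for App and 75.0% for Mapt. That Mapt 3′UTR is 32 nt long, shorter than any peak, and its share enters the mean of 48.7%. Peaks carry no counts, so unequal read depth between libraries could not be examined. No paired analysis was possible because there is 1 group of samples.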
